A study of Mus musculus with 6 samples.

Results

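The genes described here are grouped around the signal of leukaemia inhibitory factor (LIF) in mouse embryonic stem cells. All but Osmr, of the oncostatin M receptor, carry this signal from the cell surface to the nucleus or respond to it. The 10 genes are the receptor subunits Lifr, Il6st and Osmr, the kinase Jak1, the transcription factor Stat3, and the responsive genes Socs3, Pim1, Pim3, Bcl3 and Mras. All probes carrying one of these symbols in the platform annotation were taken, which gave 21 of the 45281 probes on the array. A probe counted as detected on an array when its detection p was under 0.01, and was tested when it was detected on at least 3 of the 6 arrays. Of the 21 probes, 13 met this condition, and they covered 9 of the 10 genes, all but Osmr.

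The samples were E14 cells, an established line of mouse embryonic stem cells, cultured on gelatin without feeder cells in serum with LIF. Cells had been transfected with an shRNA labelled as targeting Ncoa3, a nuclear receptor coactivator (Ncoa3 KD, 3 arrays), or with an shRNA of scrambled sequence (Scramble KD, 3 arrays), and RNA was taken at day 4. LIF was in the medium of both groups, so no array shows cells without it. Plasmids were delivered by lipofection, and the labels describe no step that selects transfected cells, so each array may average transfected and untransfected cells. The labels call the 3 samples of a group biological replicates.

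LIF binds a receptor made of LIFR and gp130, the product of Il6st. JAK kinases bound to the receptor then phosphorylate STAT3, which pairs, enters the nucleus and activates its target genes. In mouse embryonic stem cells this pathway is known for sustaining self-renewal in serum culture. SOCS3, itself induced by STAT3, binds gp130 and JAK kinases and limits the signal. The arrays measured RNA, and phosphorylation of STAT3 was not measured here.

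The Ncoa3 probe lay in the background on all 6 arrays. Its raw intensity was 87.6, 91.0 and 90.9 on the Ncoa3 KD arrays, against 97.4, 85.0 and 96.4 on the Scramble KD arrays, so the knockdown could not be checked from these arrays. The transfection protocol speaks of an Esrrb plasmid, whereas the sample titles name Ncoa3. Esrrb fell by 0.62 on the log2 scale (SE 0.07, limma adjusted p = 3.58e-04). Between 16262 and 17105 probes were detected per Ncoa3 KD array, against 15720 to 16311 per Scramble KD array. Among all features, as counted below, 21.9% were called higher and 23.4% lower. Of 6 stem cell markers, 5 fell on their brightest probe, and Sall4 did not. Summed raw intensity of the 6 ranged from 25356 to 27086 in Ncoa3 KD cells, against 33701 to 36392 in Scramble KD cells. Second detected probes fell for Sall4 (-0.37, limma adjusted p = 0.0111) and Nanog (-0.86). Those of Pou5f1 (-0.21) and Sox2 (-0.21) did not pass the test. Of 8 trophectoderm markers, 5 were measured (Cdx2, Krt19, Krt8, Krt18 and Gata3), and all 5 rose. Cdx2, Krt19 and Gata3 were detected on no Scramble KD array. They met the detection condition only through the Ncoa3 KD arrays, so it favoured rises among them. Krt8 and Krt18 were detected on all 6 arrays. Sums over the 8 genes were 2073 to 2456 in Ncoa3 KD cells and 939 to 1039 in Scramble KD cells. Eomes and Hand1 were detected on no array. Of 7 primitive endoderm markers, 3 were measured, of which Gata6 (0.88, limma adjusted p = 3.41e-04) and Sox7 (0.32, limma adjusted p = 0.0289) rose and Dab2, at 0.22, did not pass the test. Gata6 was detected on 3 Ncoa3 KD arrays and 2 Scramble KD arrays, so it met the detection condition only with the Ncoa3 KD arrays. Its other probe was detected on no array. Without any one Ncoa3 KD array, Sox7 was not called (0.31 to 0.33), and without background correction the Gata6 change was 0.39. The sums over the 7 genes were 821 to 867 in Ncoa3 KD cells and 748 to 785 in Scramble KD cells, and Gata4 and Sox17 were detected on no array. These raw sums include background. Fibroblast markers summed to 508 to 528 in Ncoa3 KD cells and 539 to 576 in Scramble KD cells. For blood cell markers the sums were 261 to 274 in Ncoa3 KD cells and 283 to 289 in Scramble KD cells. No marker of fibroblasts (0 of 6) or of blood cells (0 of 3 on the array) reached the detection condition. The part of these shifts in the results below was not tested, and in bulk RNA fewer cells of a type and less RNA per cell cannot be told apart.

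Il6st, Jak1, Stat3 and Socs3 were higher in Ncoa3 KD cells, by 1.24-fold to 1.42-fold on the brightest probe of each gene. Bcl3, Mras and Pim3 were lower, by 1.83-fold, 1.68-fold and 1.25-fold. Lifr and Pim1 did not pass the test. Thus 4 of 9 measured genes rose and 3 fell at a limma adjusted p under 0.05 over all 16674 tested probes. All features numbered 11782, with 1 probe for each of 9569 genes and every tested probe without a single gene name. Of these, 21.9% were called higher and 23.4% lower, 45.2% in all. The median change was 0.25 on the log2 scale for the 9 genes and -0.03 for all features. The groups of 3 arrays did not overlap for 8 of the 9 genes, as for 57.8% of all features. Of all called probes 47.8% were higher, a share of 69.9% when arrays were brought to a common median in place of quantile normalization (median scaling) and 59.7% with the authors' own normalization. Median scaling shifted the median of the tested probes by 0.12 on the log2 scale, and the 4 rises and 3 falls were called under it as well.

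**Figure D1:**
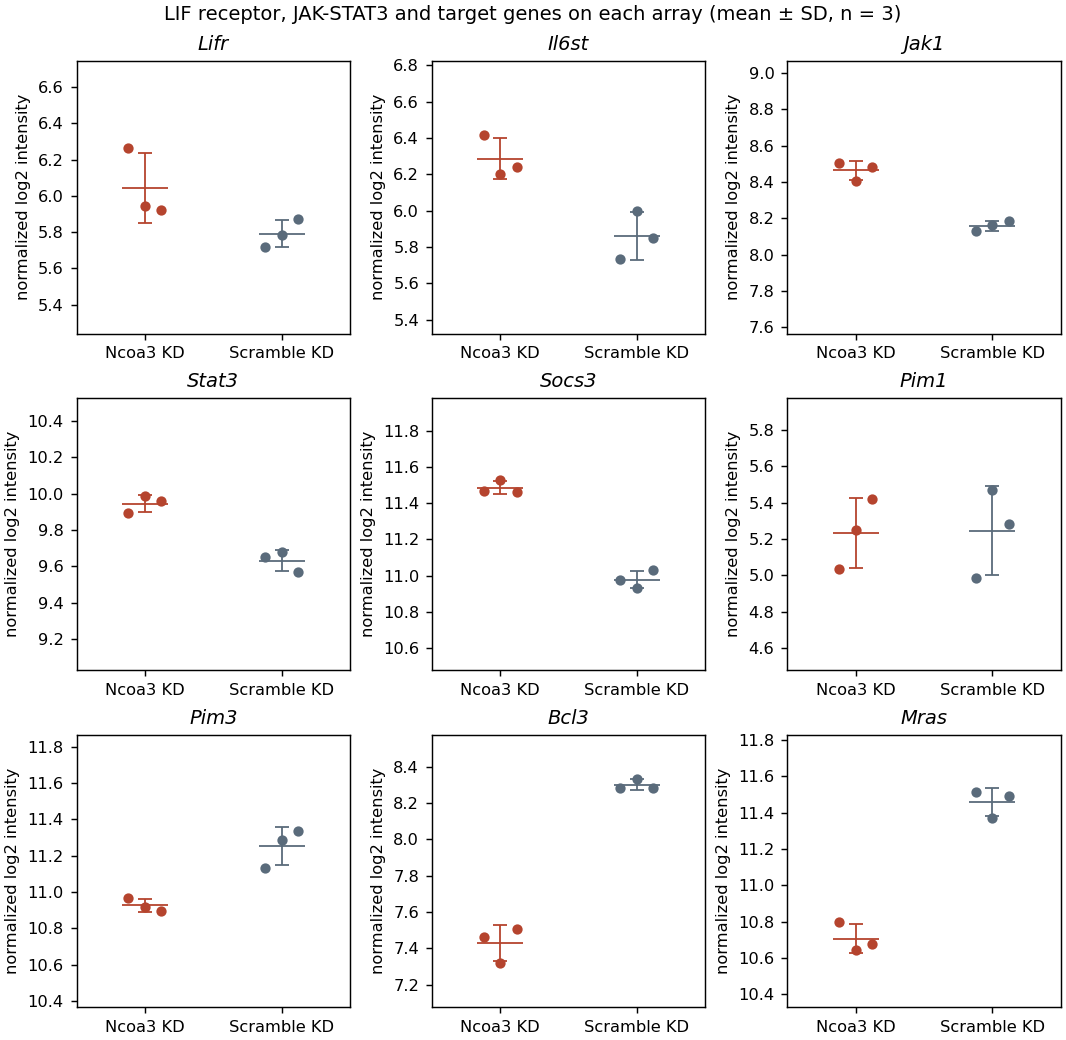
Normalized log2 intensity of the brightest detected probe of 9 genes, with a point for each array and the mean ± SD of 3 arrays, Ncoa3 KD left and Scramble KD right. All panels span 1.5 log2 units. Points of the groups overlap only for Pim1, and the widest gap is that of Bcl3, at 7.32 to 7.50 against 8.28 to 8.33.

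Of the receptor subunits, Il6st rose, Lifr did not pass the test and Osmr was not measured. Il6st encodes gp130, the subunit shared by the receptors of the interleukin-6 family. Its detected probe read 6.41, 6.20 and 6.24 log2 units on the Ncoa3 KD arrays, against 5.73, 6.001 and 5.85 on the Scramble KD arrays. Every Ncoa3 KD array was above every Scramble KD array, and the change was 0.42 ± 0.09 (SE), 1.34-fold (limma adjusted p = 0.00883). The change was 0.21 without background correction and 0.59 under median scaling. The other Il6st probe lay in the background on all 6 arrays.

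Lifr encodes the subunit that binds LIF. Its detected probe read 6.26, 5.94 and 5.92 log2 units in Ncoa3 KD cells, against 5.72, 5.78 and 5.87 in Scramble KD cells. The groups were separated by a narrow gap, and replicate 1 of Ncoa3 KD was the highest array. The change of 0.25 ± 0.10 (SE), with an unadjusted 95% interval from 0.01 to 0.49, did not pass the test (limma adjusted p = 0.0880). Without replicate 1 of Ncoa3 KD the change was 0.14, and it was called only under median scaling (0.41, adjusted p = 0.00906). The other 2 Lifr probes were not detected on any array.

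Osmr encodes the partner of gp130 in the oncostatin M receptor. None of its 3 probes reached the detection condition. A single probe was detected on 1 array, replicate 2 of Ncoa3 KD. It read 4.95, 5.32 and 4.92 log2 units in Ncoa3 KD cells and 4.50, 4.37 and 4.54 in Scramble KD cells. With every probe on the array tested, its change was 0.59 ± 0.12 (SE, limma adjusted p = 0.0135), on values that were background in 5 of 6 arrays. The changes of the other 2 Osmr probes in that fit were 0.09 and -0.03, with adjusted p-values of 0.730 and 0.914.

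Jak1 encodes a tyrosine kinase bound to gp130. Its brightest probe read 8.50, 8.41 and 8.48 log2 units in Ncoa3 KD cells, against 8.13, 8.16 and 8.19 in Scramble KD cells. The spread within each group was small beside the gap, and the change was 0.30 ± 0.06 (SE, limma adjusted p = 0.00604). A second Jak1 probe, detected on 2 Ncoa3 KD arrays and 1 Scramble KD array, gave 0.02 with a 95% interval from -0.42 to 0.46, which includes the change of the first. The third lay in the background.

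Stat3, the transcription factor of the pathway, had 3 detected probes, and all 3 had higher means in Ncoa3 KD cells. The brightest read 9.89, 9.99 and 9.96 log2 units, against 9.65, 9.68 and 9.57 in Scramble KD cells, a change of 0.31 ± 0.06 (SE, limma adjusted p = 0.00653). The probe ILMN_3096144, annotated to another RefSeq transcript than the other 2, read 7.88, 7.82 and 7.63 in Ncoa3 KD cells and 7.47, 7.30 and 7.12 in Scramble KD cells. It gave the largest change of the 3 probes, 0.48 ± 0.11 (SE, limma adjusted p = 0.00999), though its 95% interval of 0.23 to 0.74 includes the other estimates. The third, ILMN_2698046, gave 0.29 ± 0.10 (SE) and missed the threshold (limma adjusted p = 0.0534). Its Scramble KD values of 9.13, 9.37 and 9.50 were the more scattered, against 9.65, 9.55 and 9.66 in Ncoa3 KD cells, and without replicate 3 of Scramble KD it was called (0.37, adjusted p = 0.0245), whereas without replicate 1 of Scramble KD it was 0.19.

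**Figure D2:**
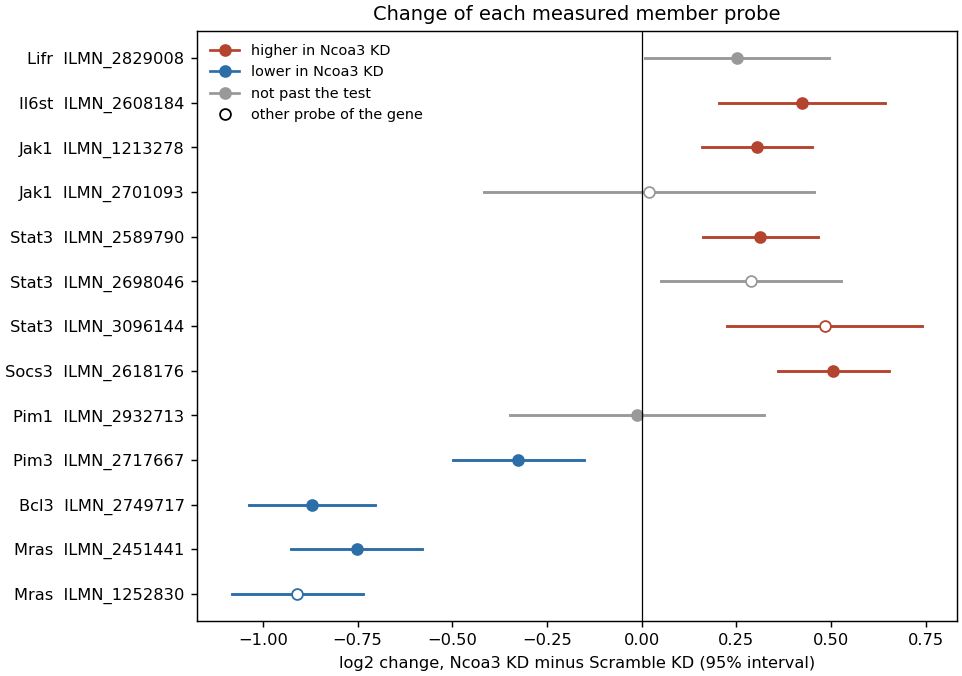
Log2 change, Ncoa3 KD minus Scramble KD, of the 13 detected probes with unadjusted 95% intervals from limma. Filled points are the brightest probe of a gene and open points its other probes. The Mras probes lie at -0.91 and -0.75, and the 3 Stat3 probes lie between 0.29 and 0.48.

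Among the responsive genes, Socs3 rose and the others measured fell or did not pass the test. Socs3 encodes the feedback inhibitor of gp130 signalling. Its only probe read 11.47, 11.53 and 11.46 log2 units in Ncoa3 KD cells, against 10.97, 10.93 and 11.03 in Scramble KD cells. The 2 groups stood well apart, and the change of 0.51 ± 0.06 (SE), 1.42-fold (limma adjusted p = 5.80e-04), had the lowest adjusted p among the rises of the 9 genes. In raw intensity the means were 3014 ± 264 and 2039 ± 90.8 (SD, n = 3 each) for Ncoa3 KD and Scramble KD.

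Pim1 and Pim3 encode serine/threonine kinases that promote survival and growth. Pim3 read 10.97, 10.92 and 10.90 log2 units in Ncoa3 KD cells, against 11.13, 11.29 and 11.34 in Scramble KD cells. All Ncoa3 KD arrays were lower, with a change of -0.33 ± 0.07 (SE, limma adjusted p = 0.00983). The brighter Pim1 probe was close to background, detected on 2 arrays of each group, and read 5.04, 5.25 and 5.42 in Ncoa3 KD cells and 4.99, 5.47 and 5.28 in Scramble KD cells. These values overlap, and the change of -0.01 had a 95% interval from -0.35 to 0.32 (limma adjusted p = 0.953), so a change of the size measured for Pim3 could not be told from none. The second Pim1 probe was not detected.

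Bcl3 encodes a nuclear member of the IκB family, which works with the NF-κB subunits p50 and p52 in transcription. It read 7.46, 7.32 and 7.50 log2 units in Ncoa3 KD cells, against 8.28, 8.33 and 8.28 in Scramble KD cells. This was the largest change of the 9 genes on their brightest probes, -0.87 ± 0.07 (SE), a 1.83-fold fall (limma adjusted p = 8.60e-05). In the authors' normalized values the change was -0.58.

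Mras encodes a small GTPase related to Ras. Its brightest probe read 10.80, 10.65 and 10.68 log2 units in Ncoa3 KD cells, against 11.52, 11.37 and 11.49 in Scramble KD cells, a change of -0.75 ± 0.07 (SE, limma adjusted p = 2.07e-04). The second probe read 9.63, 9.58 and 9.54 in Ncoa3 KD cells and 10.44, 10.61 and 10.43 in Scramble KD cells. It gave -0.91 ± 0.07 (SE, limma adjusted p = 8.46e-05), so both probes fell, with no overlap between groups on either.

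**Figure D3:**
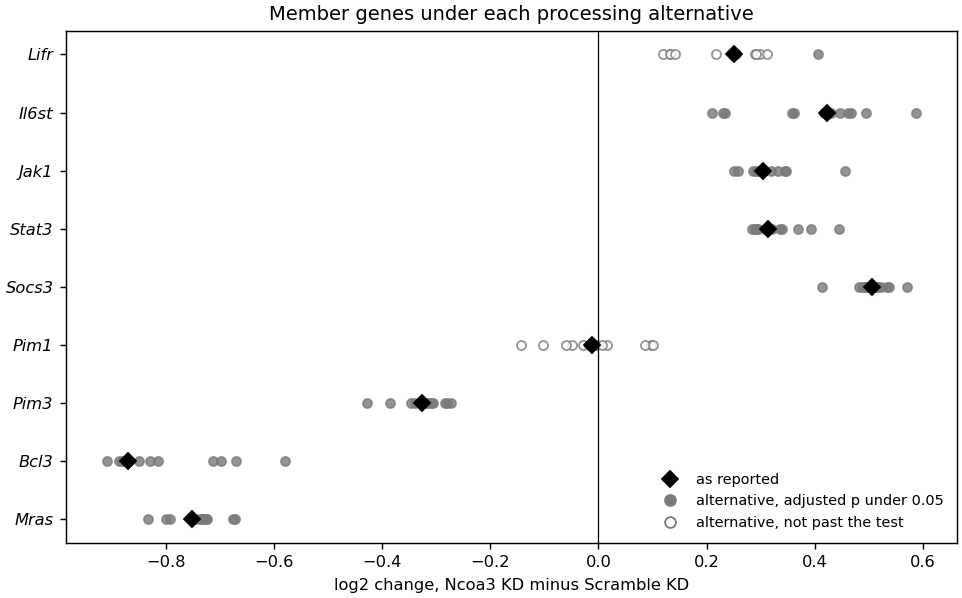
Log2 change, Ncoa3 KD minus Scramble KD, of the brightest probe of 9 genes under each processing alternative (circles, filled where the adjusted p was under 0.05) and as reported (diamonds). Il6st, Jak1, Stat3 and Socs3 stay above 0 and Pim3, Bcl3 and Mras below 0 with every circle filled, Lifr has 1 filled circle and Pim1 none.

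The start regions of the gene with the lowest adjusted p among the rises, Socs3, and of the genes with the 2 largest falls, Bcl3 and Mras, are shown because STAT3 acts on target genes through DNA. Each spans 250 bases before to 50 bases after the annotated start, from RefSeq on build GRCm38.p6, and is written 5′ to 3′ in the direction of transcription. All 3 lie on the minus strand, Socs3 at chr11:117969317-117969616, Bcl3 at chr7:19822706-19823005 and Mras at chr9:99436663-99436962. Capitals mark TTCNNNGAA, the core palindrome that STAT dimers recognise, which reads the same on both strands.
Socs3: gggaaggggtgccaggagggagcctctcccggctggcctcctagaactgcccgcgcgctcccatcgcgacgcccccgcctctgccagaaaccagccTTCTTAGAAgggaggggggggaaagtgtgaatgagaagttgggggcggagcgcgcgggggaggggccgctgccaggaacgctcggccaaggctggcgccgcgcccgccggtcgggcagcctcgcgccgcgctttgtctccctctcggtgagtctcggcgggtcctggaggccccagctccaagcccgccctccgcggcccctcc
Bcl3: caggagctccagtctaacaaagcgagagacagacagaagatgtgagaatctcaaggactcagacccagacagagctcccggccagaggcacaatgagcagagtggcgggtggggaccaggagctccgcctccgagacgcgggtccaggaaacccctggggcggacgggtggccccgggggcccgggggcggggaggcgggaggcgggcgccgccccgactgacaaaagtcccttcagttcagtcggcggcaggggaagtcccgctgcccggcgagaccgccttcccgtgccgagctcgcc
Mras: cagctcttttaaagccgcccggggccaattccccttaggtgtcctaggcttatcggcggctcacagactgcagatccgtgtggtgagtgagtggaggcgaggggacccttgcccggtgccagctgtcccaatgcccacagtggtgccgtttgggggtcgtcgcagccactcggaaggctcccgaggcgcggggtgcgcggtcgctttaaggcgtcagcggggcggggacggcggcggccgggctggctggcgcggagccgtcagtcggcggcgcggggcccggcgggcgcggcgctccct
The Socs3 window held 1 match, TTCTTAGAA, from 154 to 146 bases before the start, and the other 2 windows held none. Windows were found for all 10 genes, 12 windows in all, and 1 of the 12 held the motif. Of all 32851 windows in the table, 8.30% held it. A match describes letters and not binding, and a window without one says nothing of sites elsewhere.

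Other genes of the pathway were taken by role. Beside their counts stand the shares over all features, 21.9% called higher and 23.4% lower. Of 11 further ligands and receptors of the LIF family, 9 were named on the array and 3 were measured, of which 2 rose and 1 fell. Lif itself, the ligand, read 6.22, 5.66 and 5.85 log2 units in Ncoa3 KD cells, against 4.68, 5.29 and 4.88 in Scramble KD cells, where it was detected on 1 array. This probe met the detection condition only through the Ncoa3 KD arrays, so the condition favoured a rise. The Lif change was 0.96 ± 0.19 (SE, limma adjusted p = 0.00513). Without background correction this change was 0.39, and it was 0.37 in the normalized values of the authors. Il11, another ligand of gp130 receptors, was detected on no Scramble KD array. It was tested only because of the Ncoa3 KD arrays, so the detection condition favoured a rise. In Ncoa3 KD cells it was at least 1.30-fold higher. This bound, on background-corrected values, sets the Ncoa3 KD mean against the lowest detected signal of each Scramble KD array, or the probe's own value where that was higher. Without background correction the Il11 difference was 0.26 on the log2 scale, less than the bound. The second measured Lif probe was likewise detected on no Scramble KD array and tested only because of the Ncoa3 KD arrays. It was at least 1.74-fold higher in Ncoa3 KD cells on background-corrected values. In raw intensity its means were 134 in Ncoa3 KD cells and 97.2 in Scramble KD cells, a smaller ratio than this bound. The remaining Lif probes were detected on no array. Ctf1, cardiotrophin 1, a ligand of the LIF receptor, fell by 0.49 (limma adjusted p = 0.00252). Il6, Il6ra, Cntf, Cntfr, Clcf1 and Osm did not reach the detection condition.

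The other JAK and STAT genes moved both ways, with 2 called higher (28.6%) and 4 lower (57.1%), against 21.9% and 23.4% of all features. Of 7 measured, the kinase genes Jak2 and Jak3 rose, by 0.62 ± 0.08 and 0.54 ± 0.08 (SE), with limma adjusted p-values of 8.27e-04 and 0.00148. The 4 that fell were Stat4 at -0.94, Stat2 at -0.62, Stat6 at -0.52 and the kinase gene Tyk2 at -0.41, of which Stat6 and Tyk2 were chosen for naming after their values were seen. Stat4, which signals from the interleukin-12 receptor in lymphocytes, read 6.83, 6.71 and 6.83 log2 units in Ncoa3 KD cells and 7.77, 7.65 and 7.76 in Scramble KD cells (limma adjusted p = 5.28e-05). The Stat6 call was lost without replicate 2 (-0.48) or 3 (-0.49) of Ncoa3 KD or without replicate 2 (-0.41) or 3 (-0.48) of Scramble KD. Its change ran from -0.68 to -0.23 over the processing alternatives. Tyk2 lost its call under median scaling (-0.27, adjusted p = 0.0555). Stat5a, at -0.23, did not pass the test.

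Of 12 measured genes among the other SOCS proteins, PIAS proteins and phosphatases that restrain the pathway, 11 did not pass the test and 1 rose. Among all features, 45.2% were called. The gene that rose, Socs5, had a change of 0.41 ± 0.13 (SE, limma adjusted p = 0.0361). Its call was lost without replicate 1 (0.43) or 3 (0.30) of Ncoa3 KD and without replicate 1 (0.44) or 3 (0.30) of Scramble KD. The Socs5 change ran from 0.19 to 0.56 over the processing alternatives. The changes of the list ran from -0.16 to 0.41 with a median of 0.05. The difference between Socs3 and this list was not tested.

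gp130 also feeds the MAPK and PI3K routes, through the phosphatase SHP2 and adaptor proteins. Of 12 measured genes of these routes, 6 rose (50%) and 3 fell (25%), against 21.9% and 23.4% of all features. Their median change was 0.22. Pik3r1, a regulatory subunit of PI3K, read 8.17, 8.51 and 8.41 log2 units in Ncoa3 KD cells, against 7.19, 7.14 and 7.31 in Scramble KD cells. It rose by 1.15 ± 0.10 (SE), or 2.22-fold (limma adjusted p = 1.15e-04), and its second detected probe gave 1.33. The catalytic subunit gene Pik3cb rose by 0.58 and Ptpn11, which encodes SHP2, by 0.57, with 0.56 and 0.62 on the other Ptpn11 probes. Nras, a Ras GTPase, fell by 0.80 ± 0.07 (SE, limma adjusted p = 1.11e-04). Map2k1 at -0.25 and Rras at -0.20, chosen for naming after their values were seen, made up the other falls. The Rras call was lost without any one of the 6 arrays (-0.22 to -0.16). That of Map2k1 was lost without any one of them other than replicate 2 of Scramble KD (-0.27 to -0.21). Over the processing alternatives the Rras change ran from -0.22 to -0.05 and that of Map2k1 from -0.32 to -0.10.

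**Figure D4:**
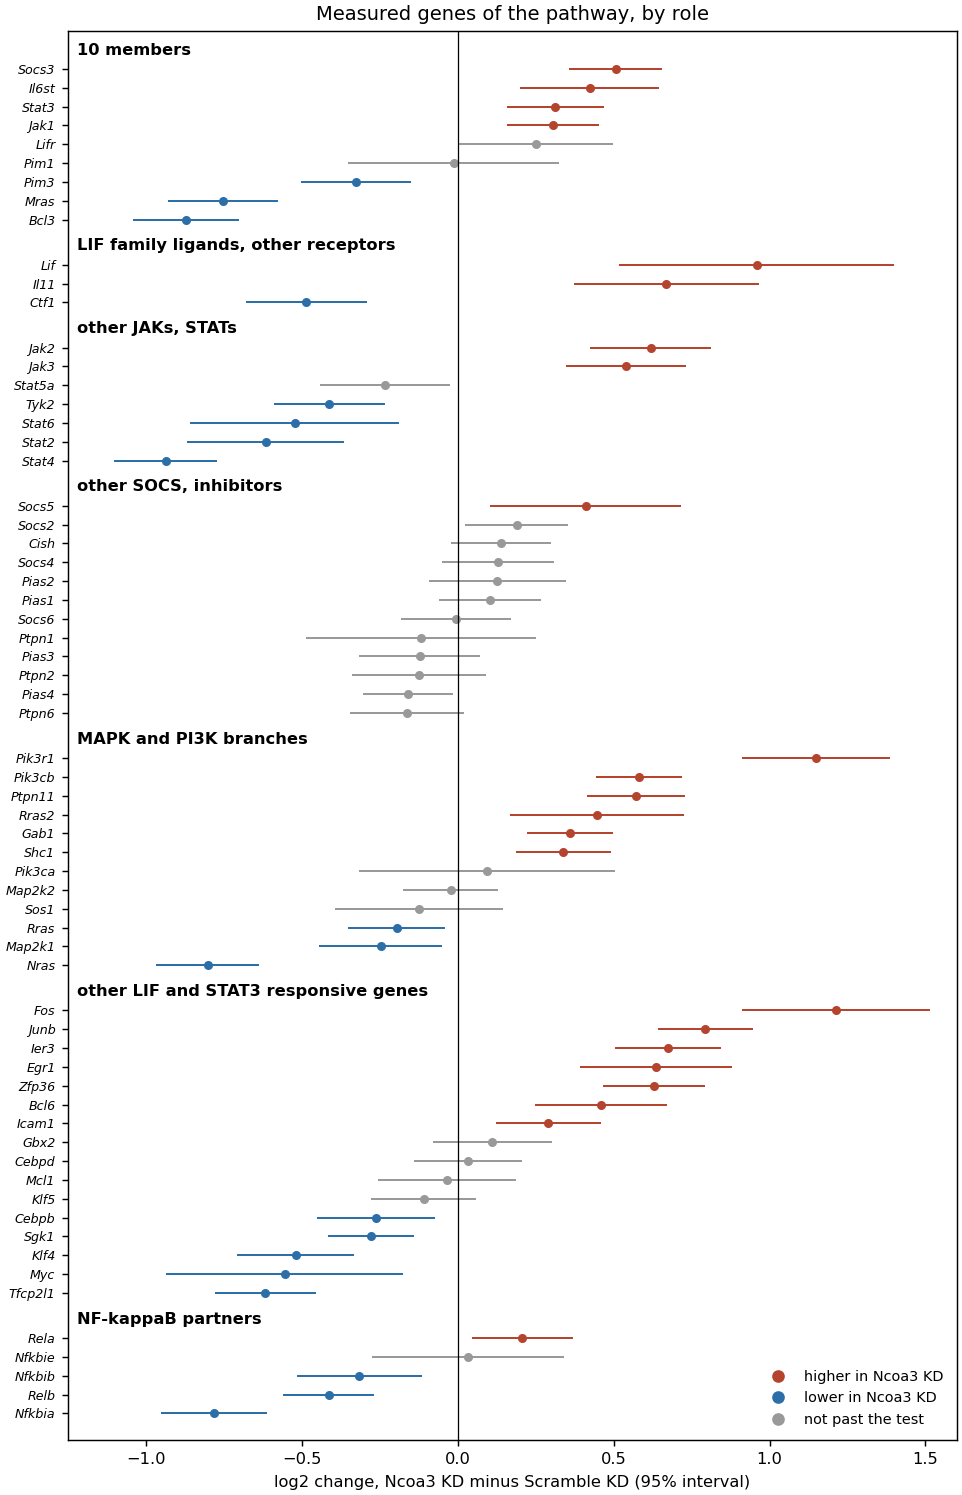
Log2 change, Ncoa3 KD minus Scramble KD, of the brightest detected probe of each measured gene, grouped by role, with unadjusted 95% intervals from limma. Red points were called higher, blue points lower, and grey points did not pass the test. Every group but the other SOCS and inhibitor genes holds calls of both signs, and all but 1 of those 12 genes are grey.

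Other genes known to respond to LIF or STAT3 moved both ways. Of 16 measured, 7 rose (43.75%) and 5 fell (31.25%), against 21.9% and 23.4% of all features. Their median change was 0.07. The largest rises were those of immediate early genes. Fos, a subunit of AP-1, was detected on no Scramble KD array and tested only because of the Ncoa3 KD arrays. It was at least 1.85-fold higher in Ncoa3 KD cells on background-corrected values. Without background correction the Fos difference was 0.50 on the log2 scale, less than this bound. Junb, also of AP-1, rose by 0.79, Ier3 by 0.67 and the zinc finger gene Egr1 by 0.64, each with a limma adjusted p of 0.00212 or less. Falls were measured for 5 genes, which were picked for naming once their values had been seen: Tfcp2l1 at -0.62, Myc at -0.55, Klf4 at -0.52, Sgk1 at -0.28 and Cebpb at -0.26. Tfcp2l1 and Klf4, transcription factors through which LIF sustains naive pluripotency in mouse cells, had limma adjusted p-values of 3.48e-04 and 0.00154. Klf5 at -0.11 and Gbx2 at 0.11, transcription factor genes of the same list, did not pass the test (limma adjusted p = 0.250 and 0.299). Both were likewise named after their values were seen. The falls of Tfcp2l1 and Klf4 were thus not shared by all transcription factor genes of the list. Myc was detected on 2 Ncoa3 KD arrays and 3 Scramble KD arrays. The Myc call was lost without replicate 3 of Ncoa3 KD (-0.44) and without replicate 1 (-0.53) or 2 (-0.43) of Scramble KD. The Cebpb call was lost without any one array other than replicate 3 of Scramble KD (-0.28 to -0.20). Over all 18 alternatives, left-out arrays included, the Cebpb call was lost under 9. Across the processing alternatives the Myc change ran from -0.72 to -0.22 and that of Cebpb from -0.32 to -0.12.

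Since BCL3 acts through NF-κB subunits, the NF-κB genes were set beside it. Of 5 measured, 3 fell (60%) and 1 rose (20%), against 23.4% and 21.9% of all features. Their median change was -0.32. Nfkbia, which encodes the inhibitor IκBα, read 8.15, 8.02 and 8.03 log2 units in Ncoa3 KD cells, against 8.77, 8.90 and 8.87 in Scramble KD cells, and fell by 0.78 ± 0.07 (SE, limma adjusted p = 1.42e-04). Relb, an NF-κB subunit, fell by 0.41 (limma adjusted p = 0.00140). Nfkbib, at -0.32, was not called without replicate 2 of Ncoa3 KD (-0.25) or replicate 3 of Scramble KD (-0.27). Its change ran from -0.37 to -0.13 over the processing alternatives. Rela, the p65 subunit, at 0.21, was not called without replicate 1 (0.24), 2 (0.18) or 3 (0.21) of Ncoa3 KD or replicate 1 (0.17) or 2 (0.20) of Scramble KD. Nfkb2 and Rel were below the detection condition, and Nfkb1 was not named on the array.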

How the data were processed

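RNA of 6 samples was measured on Illumina bead arrays, and titles gave the groups and replicate numbers. One deposited table held probe intensity that was not normalized, per the file headers, with a detection p-value deposited beside each intensity. A second deposited table held the authors' normalized intensity on a linear scale. Within every array these values had the same rank order as the raw signal (rank correlation 1). Rank order does not fix the scale, which was read as linear from the size of the values. The method and any centring are not given in the sources used here. Column medians there were 89.4, 88.4 and 87.6 for Ncoa3 KD replicates 1 to 3, against 92.7, 93.5 and 92.4 for Scramble KD replicates 1 to 3. No 2 arrays held identical values.

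Raw intensity was corrected for background with nec and then quantile normalized, as in neqc of limma 3.58.1 (R 4.3.3), on the log2 scale. The offset was 16, and detection p-values stood in for the negative controls. Probes detected (p under 0.01) on at least 3 arrays were kept, 16674 in all. Each kept probe was tested with lmFit and eBayes, 2-sided, without covariates, and p-values were adjusted by Benjamini-Hochberg over all kept probes. A gene is represented by its kept probe with the highest mean over 6 arrays. Probes were named through the platform annotation of GEO, which gave 1 gene for 34885 probes, several for 18, and none for 10378. All 10 symbols were found in the RefSeq table of GRCm38.p6. The number of arrays limits the precision.

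The 10 genes and all lists were chosen with earlier results of these data known. Every probe of the 10 genes is described. From each list, at most the 4 called genes with the largest change were named, with further ones marked as named after their values were seen. Alternatives were other background corrections, normalizations, filters, priors and weights, and the authors' values. Others were 1 probe for each gene with unnamed probes kept, leaving out each array in turn, and a block for the replicate number. Same-numbered arrays did not deviate together (correlations of -0.004, -0.006 and 0.02), so the fit has no block.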

Additional observations from a re-analysis of the deposited data

How the results depend on the processing

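Over 18 alternatives, 17 planned and 1 (median scaling on kept probes) chosen after seeing the data, the number of the 9 measured genes called higher stayed at 4 or 5 and the number called lower at 3. Il6st, Jak1, Stat3, Socs3, Pim3, Bcl3 and Mras, on their brightest probes, kept direction and call under all 18. Their log2 changes ranged from 0.21 to 0.59 for Il6st, 0.25 to 0.46 for Jak1, 0.28 to 0.45 for Stat3, 0.41 to 0.57 for Socs3, -0.43 to -0.27 for Pim3, -0.91 to -0.58 for Bcl3 and -0.83 to -0.67 for Mras. The smallest change of Il6st came without background correction and that of Bcl3 from the authors' normalized values. Lifr was called under 1 alternative and the second bright Stat3 probe under 8. Calls over all kept probes numbered 7274. Over the alternatives, some of which tested other sets of probes, calls ranged from 5524 to 8100, with 5969 to 6725 when 1 array was left out. The lowest number came with 1 probe for each gene, where 11782 features were tested. With the replicate number as a block, 6647 probes were called, and the labels do not say that the numbers mark pairs. Under the block no member gene's call changed, while Socs5, Rela, Map2k1 and Rras were no longer called (adjusted p = 0.0833, 0.0662, 0.0821 and 0.0843). Counting left-out arrays, calls were lost under 13 of 18 alternatives for Map2k1, 12 for Rras, and 9 each for Cebpb and Rela. The losses were 6 each for Socs5 and Stat6, 5 of 17 for Myc, 4 for Nfkbib and 1 for Tyk2. Slide as a block was not run, because the sources used here name no slide. Among the list genes that kept their call wherever they were tested, the smallest change over the alternatives was 0.37 for Jak2 and for Lif, -0.57 for Stat4, -0.30 for Stat2, -0.26 for Ctf1, 0.22 for Il11, 0.48 for Fos, -0.33 for Klf4 and -0.20 for Relb, each more than 1.5 times smaller than reported. Signal over background limits what can be said of Osmr, Pim1 and the dim probes.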
